A study of Mus musculus with 3 samples.

Results

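The annexins are proteins that bind negatively charged phospholipids when calcium is high, and the S100 proteins are small calcium-binding proteins, several of which dock onto an annexin. The 10 genes described here are 8 annexins (Anxa1, Anxa2, Anxa3, Anxa4, Anxa5, Anxa6, Anxa7 and Anxa11) and the S100 genes S100a6 and S100a10, taken by name from the 24071 genes of the count tables. They were chosen by name with earlier results on their KO over WT and treated over KO levels in Müller glia in view, so those levels are given as a description and carry no test. The data are 3 single-cell RNA libraries of mouse retina at postnatal day 26. The treated library came from Tspan12 KO mice that received F4L5.13 by intraperitoneal injection, at 10 mg/kg on postnatal days 6, 9 and 12 and then at 4 mg/kg every 3 days. The KO library came from Tspan12 KO mice, and the WT library from wild-type mice. Tspan12 encodes a tetraspanin that helps the receptor FZD4 respond to norrin in retinal vessels, and F4L5.13 is an antibody-based agonist that joins FZD4 to its co-receptor LRP5. With 1 library per group, no difference below has a replicate check, and the sources used here do not give the number of animals behind a library.

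Retinas were dissociated with papain, and beads carrying anti-CD73 and Annexin V were used to deplete photoreceptors and dying cells, per the labels' protocols. Annexin V is the protein made from Anxa5, here a reagent and not a readout. After filtering, 8143 treated, 9311 KO and 5784 WT barcodes remained, with 129812845, 140445417 and 118672494 reads in the whole treated, KO and WT tables. Shared barcodes between pairs of libraries numbered 15 to 31. The libraries stood apart in the share of rods, with 3511 treated, 3821 KO and 216 WT rods, amacrine cells numbered 142 treated, 1201 KO and 117 WT, and endothelial cells 32 treated, 2 KO and 119 WT. Tspan12 itself was read at 26.3 CPM in treated Müller glia, 30.5 in KO Müller glia and 43.7 in WT Müller glia. The labels do not say which part of the gene was deleted, and a read from the 3′ end outside that part would not report the deletion, so these values do not check the labels.

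Anxa2 and S100a10 form a well-known complex in which an S100a10 dimer holds a pair of Anxa2 chains at the inner face of the plasma membrane, where it takes part in membrane repair, exocytosis and, at the cell surface, plasmin formation. S100a6 (calcyclin) can also bind Anxa2 and Anxa11, while the relative S100a11 binds Anxa1. Anxa1 is best known as a glucocorticoid-induced protein that limits inflammation. Müller glia are the radial glia of the retina and span its whole depth.

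A level here is a CPM, the summed reads of a gene in a cell class of a library relative to all reads of that class in that library, with a 95% Poisson interval. The deposited values behave as reads not collapsed to molecules, so intervals were computed after dividing reads by 3.20 (treated), 2.87 (KO) or 2.77 (WT) reads per molecule equivalent. These intervals cover counting error only, which leaves out variation between animals. Levels were not scaled by transcript length and are compared between libraries and classes, never between genes. A gene was called between 2 libraries when the ratio of levels was at least 2 in either direction, the bound of its 95% interval nearest to 1 lay beyond 1.5, and the higher library held at least 30 molecule equivalents.

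In Müller glia of the KO library, Anxa2, S100a6 and S100a10 stood far above WT, and all 3 lay between KO and WT in the treated library. Anxa2 was at 13.7 CPM in treated (11.4 to 16.3), 55.8 in KO (51.8 to 59.9) and 2.74 in WT Müller glia (1.94 to 3.75). It was nearly silent in WT Müller glia and was the member with the largest ratio, 20.4 for KO over WT (14.7 to 29.0). The treated library fell to 0.245 of KO (0.202 to 0.297) and remained 5.00 times WT (3.46 to 7.37), or 3.15 times WT without Müller cluster 6, the cluster led by Ndufa4l2. S100a10, its partner, was at 48.6 in treated (44.2 to 53.3), 88.5 in KO (83.5 to 93.7) and 23.6 CPM in WT Müller glia (21.1 to 26.3). The KO level was thus the highest and the intervals of the 3 libraries did not overlap. Its ratio was 3.75 for KO over WT (3.31 to 4.25) and 2.06 for treated over WT (1.78 to 2.38), both called higher, and 0.549 for treated over KO (0.492 to 0.613), which was not called. S100a6 was at 461 in treated (447 to 475), 1118 in KO (1100 to 1136) and 249 CPM in WT Müller glia (241 to 258). KO again lay highest and WT lowest, with a ratio of 4.48 for KO over WT (4.32 to 4.65) and 0.412 for treated over KO (0.398 to 0.426), both called. For treated over WT the S100a6 ratio was 1.85 (1.77 to 1.93), which was not called.

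**Figure D1:**
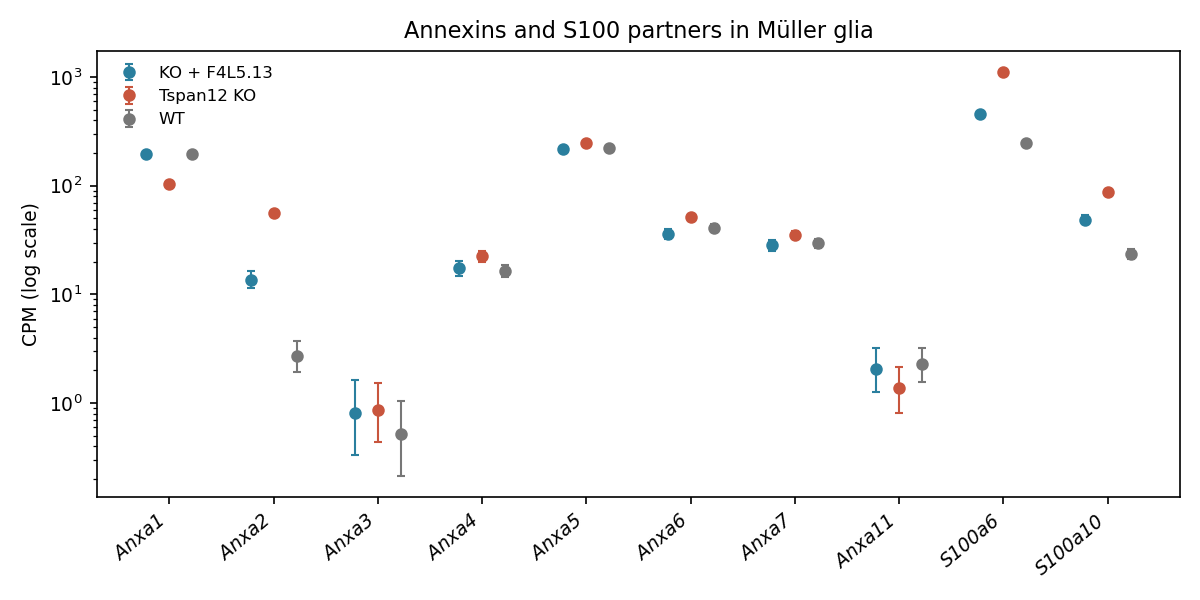
Levels of the 10 genes in Müller glia, in CPM on a log axis; points are the KO + F4L5.13, Tspan12 KO and WT libraries from left to right, and bars are 95% Poisson intervals. Anxa2 runs over 13.7, 55.8 and 2.74, while Anxa5 stays between 220 and 249; heights are not compared between genes.

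Anxa1 took the other direction. It was at 196 in treated (187 to 205), 104 in KO (98.4 to 109) and 198 CPM in WT Müller glia (190 to 205), so KO was the low library and the treated and WT intervals overlapped. The ratios of 0.525 for KO over WT (0.492 to 0.560) and 1.89 for treated over KO (1.76 to 2.03) fell short of the 2-fold rule, although neither interval reached 1. The ratio of treated over WT was 0.991 (0.934 to 1.05). Anxa1 lies on the minus strand of chromosome 19 and overlaps 1500015L24Rik on the plus strand, which is counted too. The sources used here do not say whether the counting used strand, so reads from the 2 genes may not have been told apart.

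The remaining annexins of Müller glia differed little between libraries. Anxa5, which binds exposed phosphatidylserine, was at 220 in treated, 249 in KO and 221 CPM in WT Müller glia. Anxa6, a membrane and cytoskeleton organiser, was at 36.1 in treated, 51.4 in KO and 41.0 in WT. Anxa4 was at 17.3 in treated, 22.5 in KO and 16.5 in WT, and Anxa7, known from membrane fusion assays, at 28.2 in treated, 35.3 in KO and 29.6 in WT. These 4 genes were highest in KO, with KO over WT ratios between 1.13 for Anxa5 (1.07 to 1.18) and 1.37 for Anxa4 (1.15 to 1.63). None of them was called. Anxa11, which links RNA granules to lysosomes, was scarce, at 2.08 in treated, 1.36 in KO and 2.30 in WT, with overlapping intervals. Anxa3 had 24 treated, 33 KO and 20 WT reads in all of the Müller glia and was too low to compare.

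Of the 9 members with enough reads for KO over WT, 3 were called higher and 0 lower, where 2.5% of the 14045 genes measured in Müller glia were called higher and 2.05% lower. For treated over KO, 2 of 8 measured members were called lower (Anxa2 and S100a6) and 0 higher, beside 1.71% of 13564 genes lower and 1.38% higher. For treated over WT, 2 of 9 were called higher (Anxa2 and S100a10) and 0 lower, beside 0.758% of 13712 genes higher and 0.365% lower. The choice of members used these contrasts, so the counts describe the members and are read no further. The S100a10 call for treated over WT sat at the edge of the rule and was lost with doublets kept (ratio 1.997) or without the 5 cells that held most of its reads (1.95).

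**Figure D2:**
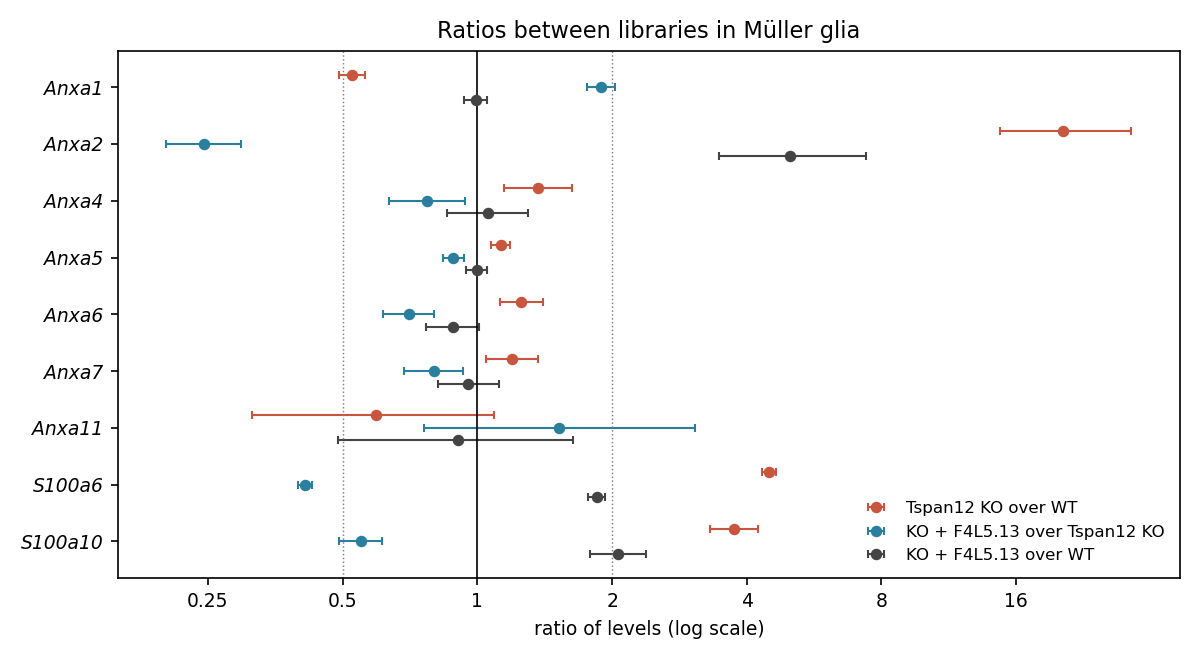
Ratios of levels in Müller glia on a log axis with 95% intervals, for Tspan12 KO over WT, KO + F4L5.13 over Tspan12 KO and KO + F4L5.13 over WT; dotted lines mark ratios of 0.5 and 2, and Anxa3 is left out as too low. Anxa2 lies at 20.4, 0.245 and 5.00 in that order, and Anxa1 at 0.525, 1.89 and 0.991.

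The Anxa2 reads of Müller glia came from many cells in KO. The 5 cells with most Anxa2 reads held 21.8% of them in treated, 6.59% in KO and 20.8% in WT Müller glia. After thinning each cell to 5000 reads, Anxa2 was seen in 4.12% of treated (45 of 1092 cells), 15.9% of KO (200 of 1259) and 0.947% of WT Müller glia (16 of 1689). Without thinning the shares were 9.72% in treated, 31.9% in KO and 3.14% in WT, at median depths of 22858, 27065 and 19417 reads per cell in treated, KO and WT. In rods, a class that served as a background, the thinned share was 1.46% in treated, 1.44% in KO and 0.472% in WT, of which the WT value rests on 1 of 212 cells. In bipolar cells it was 0.189% in treated, 3.46% in KO and 0.228% in WT (6 of 2626 cells, 0.0839% to 0.497%). The WT Müller share (0.542% to 1.53%) thus lay within the interval of WT rods and above that of WT bipolar cells.

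S100a6 was seen in 67.2% of treated, 88.1% of KO and 57.8% of WT Müller glia after thinning (83.4%, 96.7% and 81.4% in treated, KO and WT without it). Rods gave 3.35% in treated, 4.87% in KO and 7.55% in WT. S100a10 was seen in 13.2% of treated, 21.0% of KO and 8.05% of WT Müller glia (24.4%, 39.1% and 17.1% without thinning), against 0.437% of treated, 1.26% of KO and 0.943% of WT rods. Anxa1 was seen in 41.2% of treated, 31.7% of KO and 41.3% of WT Müller glia (55.0%, 49.5% and 58.1% without thinning). The order of the libraries in each of these Müller shares was that of the Müller levels, which did not hold for the rod shares and rod levels. Thinning left out 81 treated, 60 KO and 1 WT Müller cells that were shallower. It left out far more rods, 2824 of 3511 in treated and 3267 of 3821 in KO, beside 4 of 216 in WT. The thinned rod shares of treated and KO thus rest on the deepest rods. Without thinning, Anxa2 was seen in 0.484% of treated, 0.968% of KO and 0.926% of WT rods.

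Anxa2 and S100a10 shared cells more often than the product of their separate shares in the treated and KO libraries. Both genes were seen in 2.01% of treated Müller glia (22 cells), where the product was 0.543%. In KO both were seen in 6.67% (84 cells), where the product was 3.33%. In WT both were seen in 0.0592% (1 cell), where the product was 0.0763%. Among KO Müller glia with Anxa2, 42.0% had S100a10, against 17.0% of those without Anxa2. In the treated library the shares were 48.9% and 11.7%. For S100a6, present in most cells, 94.0% of KO cells with Anxa2 had it and 87.0% of the rest. The cells of a library share its preparation, so these shares describe the library.

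The Müller glia fell into 5 clusters, built without annexin or S100 genes, and the libraries filled them unequally. Cluster 2, led by Hes5, held 597 treated, 42 KO and 1260 WT cells. Cluster 6, led by Ndufa4l2, a hypoxia-induced mitochondrial gene, held 102 treated, 720 KO and 25 WT cells. Cluster 4 was shared most evenly, with 287 treated, 335 KO and 335 WT cells, and carried 3 rod and 3 astrocyte markers. Clusters 2 and 6 carried 3 astrocyte markers each. Cluster 18, with 92 treated, 163 KO and 68 WT cells, carried 6 of 12 cone markers and was the deepest at a median of 49187 reads. Cluster 29, with 95 treated, 59 KO and 2 WT cells, was shallow at a median of 3132.5 reads.

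Within cluster 4 the KO over WT ratio was smaller than over the class for Anxa2 and slightly larger for S100a6 and S100a10. Anxa2 was at 11.97 in treated, 49.0 in KO and 3.42 CPM in WT cells of cluster 4, a KO over WT ratio of 14.3 (8.06 to 28.0). S100a6 was at 464 in treated, 1095 in KO and 211 in WT cells there (KO over WT 5.20, 4.81 to 5.62), and S100a10 at 50.4 in treated, 90.7 in KO and 22.9 in WT cells (3.96, 3.10 to 5.10). Anxa1 passed the rule in this cluster, at 186 in treated, 90.6 in KO and 199 in WT cells. Its ratio was 0.455 for KO over WT (0.398 to 0.518) and 2.06 for treated over KO (1.79 to 2.37).

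The lower treated levels were not seen in cluster 6. Its treated cells were far below its KO cells in Ndufa4l2 itself, at 256 CPM in treated and 1965 in KO. Treated cells of cluster 4 were at 185, so cluster 6 does not compare cells alike in Ndufa4l2. Among cells of cluster 6, Anxa2 was at 72.5 in treated (54.7 to 94.2) and 64.8 CPM in KO (58.7 to 71.3), a ratio of 1.12 (0.830 to 1.48). S100a6 was at 1304 in treated and 1167 in KO (1.12, 1.05 to 1.19). S100a10 was called higher there, at 182 in treated and 84.4 in KO (2.15, 1.77 to 2.60). Its treated level leaned on few cells. The 5 highest of 102 treated cells held 44.8% of the S100a10 reads, and the 5 highest of 720 KO cells 12.04%. For Anxa2 these shares were 43.3% in treated and 10.3% in KO. S100a10 was seen in similar shares of cells, 41.2% in treated and 38.6% in KO, without thinning. The intervals do not cover such spread between cells. In cluster 18 the S100a10 level was instead lower in treated, at 29.3 in treated and 101 in KO (0.290, 0.209 to 0.395). In cluster 2, where most treated and WT cells lay, Anxa2 was at 5.82 in treated and 2.37 in WT cells (2.46, 1.31 to 4.68), and S100a10 at 29.6 in treated and 25.9 in WT cells (1.14, 0.909 to 1.43). No member was called in cluster 2. Treated over WT ratios in cluster 4 were called higher for Anxa2, S100a6 and S100a10. They were 3.50 for Anxa2 (1.77 to 7.40), 2.20 for S100a6 (2.01 to 2.42) and 2.20 for S100a10 (1.66 to 2.93). Cluster 18 had S100a6 (2.89, 2.42 to 3.47) and S100a10 (5.03, 2.42 to 11.9) called higher for treated over WT. Anxa2 was not called there (4.13, 1.21 to 20.5). The share of all genes called was not computed within single Müller clusters, so calls there have no such share beside them. Without cluster 6 the S100a10 ratio over the class was 0.397 for treated over KO, called lower, and 1.58 for treated over WT, not called.

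**Figure D3:**
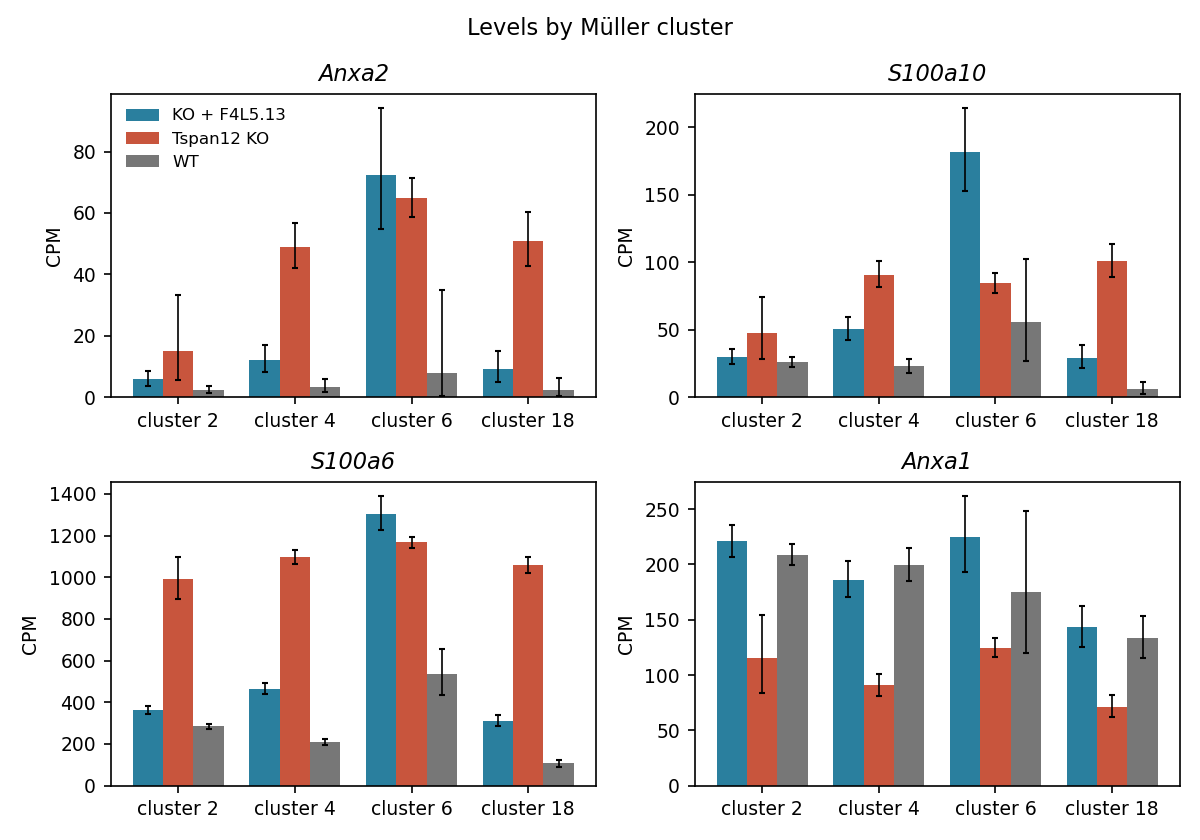
Levels of Anxa2, S100a10, S100a6 and Anxa1 in 4 Müller clusters, in CPM of the cluster, with 95% Poisson intervals; bars run KO + F4L5.13, Tspan12 KO and WT, and cluster 29 is left out for its 2 WT cells. In cluster 4 Anxa2 stands at 11.97, 49.0 and 3.42, and in cluster 6 the KO + F4L5.13 bar reaches 72.5 beside 64.8 in Tspan12 KO.

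Markers of other cells also moved in the Müller class. Rod markers had the largest sums, at 11227 in treated, 10522 in KO and 13762 CPM in WT. Of the 12 rod markers 2 were higher in KO than in WT Müller glia. All 12 cone markers were higher in KO than in WT Müller glia, with summed levels of 1979 in treated, 2504 in KO and 1194 CPM in WT. In cones Anxa2 itself was at 0.155 in treated, 0.991 in KO and 0.724 in WT, below the Müller level of the same library. Of 12 astrocyte markers 7 were higher in KO, with sums of 805 in treated, 1197 in KO and 910 in WT. Most of each sum was Aqp4, also on the Müller list, at 516 in treated, 706 in KO and 667 in WT. Gfap was at 74.2 in treated, 260 in KO and 16.4 in WT. The astrocyte gene Pax2 was at 0 in the Müller glia of each library. The endothelial list summed to 820 in treated, 919 in KO and 886 in WT Müller glia with 3 of 12 genes higher in KO, nearly all of it from Kdr and Flt1. The endothelial gene Cldn5 was at 0.637 in treated, 0.0787 in KO and 1.89 in WT Müller glia. The 7 erythroid markers summed to 580 in treated, 0.787 in KO and 304 in WT. Microglial markers summed to 24.6 in treated, 22.2 in KO and 21.0 in WT, with 10 of 12 higher in KO than in WT. Amacrine markers summed to 689 in treated, 676 in KO and 693 in WT, with 11 of 12 higher in KO than in WT and 10 of 12 lower in treated than in KO. Most of each amacrine sum was Pax6, at 643 in treated, 599 in KO and 642 in WT. Markers of the retinal pigment epithelium summed to 377 in treated, 138 in KO and 306 in WT. The part of these shifts in the member levels was not tested.

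Other S100 genes and binding partners came from lists set for this description. All 7 measured genes of the 11 other S100 genes in the tables were higher in KO than in WT Müller glia, with a median log2 ratio of 0.40 beside -0.02 over all measured genes, and 1 of them was called. That gene was S100a11, the Anxa1 partner, at 13.6 in treated, 27.1 in KO and 5.97 CPM in WT Müller glia (KO over WT 4.55, 3.58 to 5.84). It was also called for treated over WT (2.28, 1.71 to 3.04), and for treated over KO its ratio was 0.5005 (0.405 to 0.615), which was not called. All 7 were lower in treated than in KO, with a median log2 ratio of -0.49 and no call. S100a16 was at 737 in treated, 1005 in KO and 670 in WT, and S100b, a glial marker, at 15.2 in treated, 28.5 in KO and 21.8 in WT, neither called.

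Among 17 measured binding partners and membrane-repair genes, 13 were higher in KO than in WT Müller glia and 3 were called higher, with a median log2 ratio of 0.22, beside 2.5% of all measured genes called higher and an all-gene median of -0.02. Ahnak2, a relative of the scaffold AHNAK that binds the Anxa2 and S100a10 complex, was at 0.939 in treated, 3.10 in KO and 0.155 in WT. Its WT level rests on few molecules, and the KO over WT ratio was 20.0 (5.42 to 151). Myof, the membrane-repair protein myoferlin, was at 45.0 in treated, 75.0 in KO and 35.0 in WT (KO over WT 2.15, 1.92 to 2.40). Dlc1, whose protein binds S100a10, was at 12.6 in treated, 22.2 in KO and 10.3 in WT (2.16, 1.77 to 2.66). Between treated and KO, Ahnak2 alone of the 17 was called, lower at 0.303 (0.128 to 0.639), and the median log2 ratio of the 17 genes was -0.02, beside 1.71% of all measured genes called lower and an all-gene median of 0.01. Anxa9 was too low to compare, and Anxa8, Anxa10, Anxa13, S100a14, S100g, S100z, Fpr1 and Fpr2 were not analysed here.

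Outside Müller glia each member had its own order of classes. The orders below use classes with at least 20 cells in a library, by the median level over libraries, and call neighbours apart where the ranges over libraries did not overlap. Anxa3 was highest in endothelial cells, at 394 in treated and 495 CPM in WT, and in microglia, at 313 in treated and 489 in KO. Those 2 classes overlapped, and in every other class Anxa3 stayed at or below 1.78. Anxa2 was highest in endothelial cells, at 372 in treated and 374 in WT, followed by astrocytes at 88.4 in treated, 130 in KO and 78.6 in WT, and then by microglia at 34.1 in treated and 38.6 in KO. KO Müller glia, at 55.8, lay above KO microglia and below KO astrocytes.

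S100a10 was highest in the 29 ganglion cells of the KO library, at 381 CPM, a class with under 5 cells in the other libraries. Endothelial cells followed at 103 in treated and 126 in WT, and overlapped with astrocytes at 134 in treated, 92.4 in KO and 71.3 in WT. Anxa1 was highest in Müller glia, apart from endothelial cells at 33.7 in treated and 31.5 in WT. S100a6 was highest in Müller glia, whose range overlapped with that of astrocytes, at 333 in treated, 422 in KO and 250 in WT. Astrocytes numbered 21 in treated, 26 in KO and 49 in WT.

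Anxa5 was broad, at 190 in treated, 296 in KO and 259 in WT astrocytes, at 244 in treated and 269 in WT endothelial cells, and at 172 in treated, 191 in KO and 202 in WT horizontal cells. Astrocytes, endothelial cells and Müller glia overlapped in it, and rods, cones and amacrine cells stayed at or below 16.3. Anxa6 was highest in KO ganglion cells at 137 and was at 93.5 in treated and 87.7 in WT endothelial cells. Anxa7 was the member with the least spread over classes, its medians running between 18.5 in rods and 105 in endothelial cells. It was at 58.0 in treated, 54.3 in KO and 49.6 in WT bipolar cells. That class was uneven, with Anxa7 at 109 in treated, 143 in KO and 123 in WT cells of the main rod bipolar cluster. Anxa4 and Anxa11 were highest in astrocytes, at 30.6 in treated, 38.3 in KO and 26.3 in WT for Anxa4 and at 10.4 in treated, 8.90 in KO and 11.2 in WT for Anxa11.

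**Figure D4:**
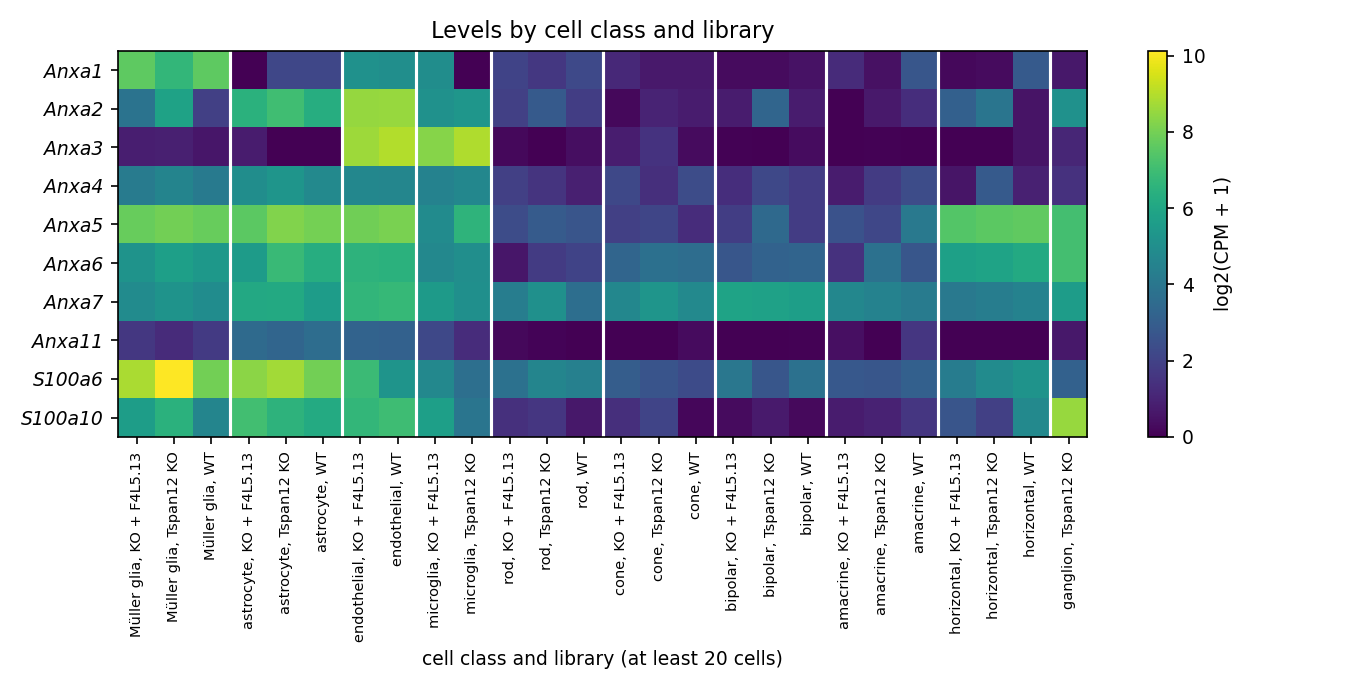
Levels as log2(CPM + 1) for the 10 genes (rows) in each cell class and library with at least 20 cells (columns, KO + F4L5.13 left of Tspan12 KO left of WT). Anxa3 is bright in endothelial cells and microglia, S100a10 in ganglion cells at 381 CPM, and S100a6 in Müller glia and astrocytes.

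In the bipolar class, the interneurons that carry photoreceptor signals to the inner retina, Anxa2 and Anxa5 were called higher in KO and S100a6 lower. Anxa2 was at 0.697 in treated, 8.75 in KO and 0.698 CPM in WT bipolar cells, a KO over WT ratio of 12.5 (6.44 to 27.4) and a treated over KO ratio of 0.0797 (0.0335 to 0.164). Anxa5 was at 2.63 in treated, 10.0 in KO and 2.51 in WT (KO over WT 4.00, 2.68 to 6.07; treated over KO 0.262, 0.168 to 0.398). S100a6 was at 15.0 in treated, 5.46 in KO and 12.7 in WT (KO over WT 0.430, 0.308 to 0.590; treated over KO 2.75, 2.002 to 3.84). Of 6 measured members in each of these comparisons, 2 were called higher and 1 lower for KO over WT, where 1.89% of genes were higher and 0.858% lower. Between treated and KO, 1 was called higher and 2 lower, where 0.914% of genes were higher and 2.06% lower. Of 5 measured for treated over WT, 0 were called, where 0.165% were higher and 0.394% lower.

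The KO bipolar reads of Anxa2 and Anxa5 lay mostly in 1 cluster, the rod bipolar cells led by Sebox, Prkca and Car8. That cluster held 575 of the 1757 KO bipolar cells, with 66.2% of the Anxa2 and 77.6% of the Anxa5 reads. Anxa2 was seen in 3 of 700 treated, 60 of 575 KO and 1 of 641 WT cells of the cluster, and its level was 1.38 in treated and 26.8 CPM in KO (treated over KO 0.0517, 0.0129 to 0.144). Against the single WT read the lower bound of the KO over WT ratio was 15.1. Anxa5 was seen in 21 treated, 88 KO and 8 WT cells, at 4.27 in treated, 35.9 in KO and 3.37 in WT (KO over WT 10.7, 5.27 to 24.7). In the other bipolar clusters with at least 40 cells in each library compared, Anxa2 could not be called. None held the 30 molecule equivalents that a call needs, whatever the ratio. Anxa2 was also high in KO in cluster 13, led by Htr3a, at 0 in treated, 19.4 in KO (20 reads in 6 of 94 cells) and 1.01 in WT. In cluster 14, a Grik1 cluster, it was at 0 in treated, 24.1 in KO and 0 in WT, with all 14 KO reads in 1 cell. In the rod bipolar cluster 1.2% of 8365 genes were called higher and 0.347% lower for KO over WT, 0.407% higher and 1.19% lower for treated over KO, and 0.0574% higher and 0.103% lower for treated over WT, where Anxa2 and Anxa5 were not called.

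Of the 60 KO rod bipolar cells with Anxa2, 16 also had Anxa5, where the product of the shares gives 9.18 cells. Their median depth was 10983 reads, beside 10224 in the other KO cells of the cluster. Müller markers summed to 251 CPM in the KO cells with Anxa2 and 275 in the rest, and S100a6 was at 3.14 with and 4.66 without Anxa2. In KO Müller glia S100a6 was at 1118. The part of reads from other cells in the Anxa2 reads of these cells was not tested. A second rod bipolar cluster of 50 WT cells had 1 Anxa2 read.

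In the treated and WT libraries most bipolar S100a6 reads came from 3 clusters with the kainate receptor gene Grik1, known from OFF bipolar types, among their 10 leading genes. The 3 clusters held 485 of 560 treated, 52 of 146 KO and 380 of 491 WT reads. There S100a6 was at 47.5 in treated (40.2 to 55.7), 10.7 in KO (6.34 to 16.8) and 38.9 CPM in WT (32.6 to 45.9). Reads of it were seen in 129 of 421 treated, 22 of 248 KO and 127 of 488 WT cells. The ratio was 0.275 for KO over WT (0.158 to 0.450), 4.45 for treated over KO (2.73 to 7.70) and 1.22 for treated over WT (0.964 to 1.55). In the other 13 bipolar clusters it was at 2.77 in treated, 4.30 in KO and 3.84 in WT, with overlapping intervals. These clusters were singled out after their values were seen.

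**Figure D5:**
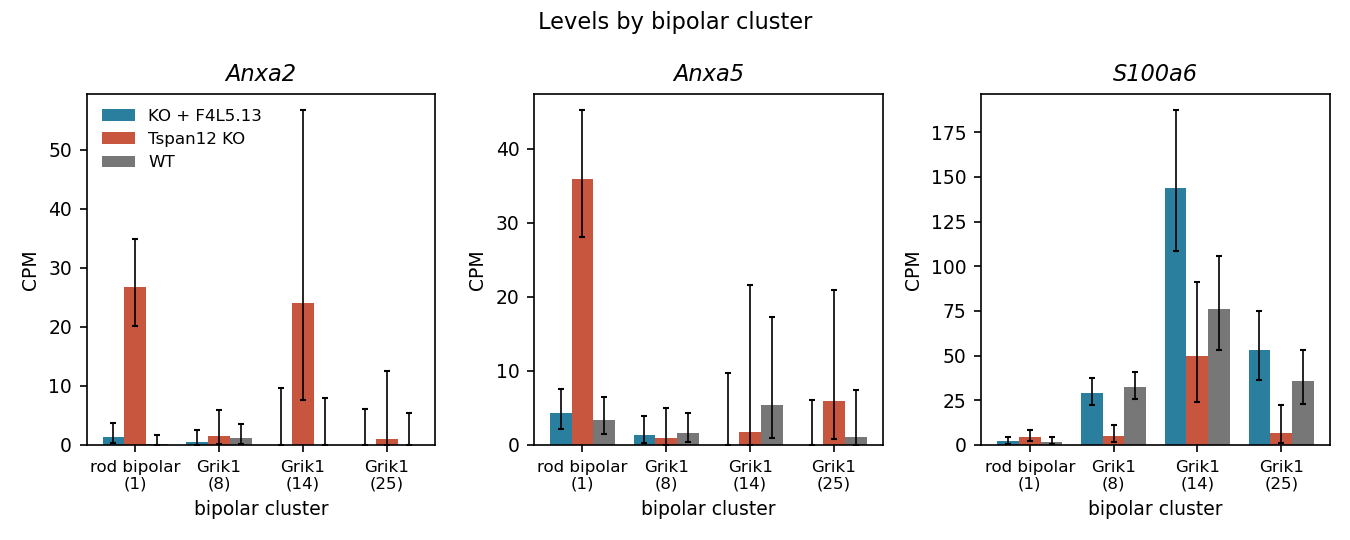
Levels of Anxa2, Anxa5 and S100a6 in the main rod bipolar cluster and the 3 Grik1 clusters, in CPM of the cluster, with 95% Poisson intervals; bars run KO + F4L5.13, Tspan12 KO and WT. Anxa2 and Anxa5 reach 26.8 and 35.9 in Tspan12 KO rod bipolar cells, and S100a6 is lowest in Tspan12 KO in each Grik1 cluster.

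In rods Anxa7 was called higher in KO, at 18.5 in treated, 32.5 in KO and 11.6 in WT (KO over WT 2.80, 1.64 to 5.14), the only call among 4 measured members. In rods 11.6% of genes were called higher and 0.49% lower for KO over WT, the median log2 ratio of all genes was 0.42, and scaling by the median of ratios ended the call. The WT rods numbered 216 and were deeper, at a median of 13885.5 reads, beside 3129 in KO. For treated over KO 0 of 4 members were called in rods (0.316% of genes higher, 1.82% lower), and for treated over WT 0 of 2 (9.74% higher, 0.686% lower).

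In cones 0 members were called in any comparison, among 2, 1 and 2 measured for KO over WT, treated over KO and treated over WT. The called shares of all genes there were 0.766% higher and 0.189% lower for KO over WT, 0.487% higher and 0.777% lower for treated over KO, and 0.295% higher and 0.0943% lower for treated over WT. In amacrine cells Anxa6 was called lower for treated over KO, at 1.74 in treated and 12.9 in KO (0.135, 0.0104 to 0.580), 1 of 3 measured members, where 0.718% of genes were lower and 0.781% higher. Its WT level was 5.59 from 117 cells, and for KO over WT 0 of 3 members were called (0.55% of genes higher, 1.03% lower). No member had enough reads there for treated over WT, where 0.388% of genes were higher and 0.669% lower. The treated value there rests on 5 reads.

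Endothelial cells line the vessels that Tspan12 serves, and only the treated and WT libraries held enough of them for a look, 32 treated and 119 WT cells. S100a6 was called higher, at 118 in treated and 37.0 CPM in WT endothelial cells (3.18, 2.33 to 4.31), 1 of 9 measured members, where 0.666% of 9306 genes were called higher and 0.795% lower. Anxa2, Anxa3 and S100a10 were not called there, at 372, 394 and 103 in treated and 374, 495 and 126 in WT. S100a6 was at 461 in treated and 249 in WT Müller glia; the part of reads from other cells in the small treated set was not tested.

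The genes whose levels ran most like those of the 3 called members were ranked by Pearson's r of log2(CPM + 1) over 26 sums of class and library among 12849 genes. Annexin and S100 genes were kept out of the first 5 by design. For Anxa2 the first 5 were Reep3 (r = 0.892), Irf9 (0.883), Cnn2 (0.883), Itgb1 (0.880) and Ifi27 (0.869). For S100a10 they were Cd151 (0.920), Bag3 (0.910), Txndc17 (0.896), Itgb1 (0.892) and Rbpms (0.883). For S100a6 they were Mgst1 (0.924), Clrn1 (0.920), Trip6 (0.920), Gldc (0.918) and Gm17501 (0.914). Between members r was 0.812 for Anxa2 and S100a10, 0.605 for Anxa2 and S100a6 and 0.680 for S100a6 and S100a10. Sums of 1 library share their preparation and depth, so these are descriptions of likeness.

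Anxa2 lies on chromosome 9 (chr9:69453620-69491795, plus strand, GRCm38), and S100a6 and S100a10 lie on chromosome 3 (chr3:90612882-90624181 and chr3:93555080-93564643, both plus strand). The promoters of Anxa2 and S100a6 are shown because both genes were called in KO Müller glia over WT. S100a10, called there too, Anxa3 and Anxa6 are named without a window. Each is the RefSeq window of 300 bases on the plus strand of GRCm38.p6, 250 before and 50 after the start that RefSeq gives, which differs from the GENCODE start above, at chr9:69453433-69453732 for Anxa2 and chr3:90612644-90612943 for S100a6. Capitals mark matches, on either strand, to the letters TGANTCA of AP-1 sites or to ACGTG or GCGTG of hypoxia response elements.
Anxa2: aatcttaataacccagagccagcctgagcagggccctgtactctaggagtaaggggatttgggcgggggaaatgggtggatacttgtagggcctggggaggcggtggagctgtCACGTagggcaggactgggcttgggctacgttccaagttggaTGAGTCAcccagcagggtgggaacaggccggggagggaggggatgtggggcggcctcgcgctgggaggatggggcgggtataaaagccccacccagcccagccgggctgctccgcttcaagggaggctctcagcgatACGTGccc
S100a6: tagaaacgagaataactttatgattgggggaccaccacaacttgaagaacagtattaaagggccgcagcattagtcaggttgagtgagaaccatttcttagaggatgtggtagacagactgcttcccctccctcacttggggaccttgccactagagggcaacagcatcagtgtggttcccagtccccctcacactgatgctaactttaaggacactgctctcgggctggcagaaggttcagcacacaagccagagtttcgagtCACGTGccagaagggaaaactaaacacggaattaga
The Anxa2 window held 1 AP-1 match, starting at base 156, and 2 hypoxia matches, at bases 114 and 293. The S100a6 window held no AP-1 match and 2 overlapping hypoxia matches, at bases 265 and 266, which are the same letters read on opposite strands. The Anxa1 window held none of these letters. Hypoxia matches also lay in windows of members not called in Müller glia, so they did not mark the called genes. The Anxa5 window held 3, the Anxa11 window 2 and each Anxa4 window 1, while the Anxa7 windows held 0 and 3. None of these windows of uncalled members held the AP-1 letters. The STAT letters TTCNNNGAA were in none of the windows named here. Of 32851 mouse promoter windows, 7.81% held the AP-1 letters, 43.8% the hypoxia letters and 8.30% the STAT letters. A match describes letters in the window and says nothing of binding.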

How the data were processed

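Single cells of 3 mouse retina libraries (1 treated, 1 KO, 1 WT) were profiled on the 10x Genomics Chromium 3′ v3 platform, per the labels' protocols. The authors deposited estimated counts per gene and barcode, and the submitters' processing notes name Partek (version 9.0) and the build mm10. About 2.3% to 2.4% of nonzero values were not whole, within a tolerance of 0.001, and values were rounded. The counter, and whether reads were collapsed to molecules, are not given in the sources used here. The values were read as uncollapsed reads and divided by 2.77 to 3.20 for intervals.

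Barcodes with under 500 genes or over 20% mitochondrial reads were left out. Simulated doublets ranked barcodes, and 297 to 928 per library were removed. Clusters (2000 variable genes without annexin or S100 genes, 40 components, 15 neighbours, Leiden resolution 1.0, leidenalg 0.10.2, Python 3.11.15) were named by at least 3 markers at 2-fold, with a prior of 10 CPM. That prior, the doublet ranking and the divisor were set after the data were seen: a prior of 1 left the largest WT Müller cluster unnamed. Comparisons needed 50 cells in each library, except endothelial cells. Intervals are exact Poisson for levels, exact Clopper-Pearson for shares and conditional binomial for ratios, at 95%. The floor is 3 molecule equivalents. In counts simulated from the Poisson model behind the intervals, the call rule recovered most of the planted changes. That simulation held no variation between cells or animals, so it could not check the rule against it. Members and lists were chosen with earlier results of these data known. The text names every member, called genes of the lists and the 5 most similar genes outside the annexin and S100 genes. Positions are from GENCODE M21 and promoters from RefSeq. With 1 library per group, no p-value was computed. Alternatives covered filtering, clustering, scaling, depth, extreme cells, background and thresholds.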

Additional observations from a re-analysis of the deposited data

Results flagged for a closer look

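S100a6 differed in opposite directions in Müller glia and bipolar cells of the same libraries, and the difference between the classes was not tested. For KO over WT the ratio was 4.48 in Müller glia and 0.430 in bipolar cells. For treated over KO it was 0.412 in Müller glia and 2.75 in bipolar cells. Both classes share their libraries, and the bipolar level is low, at 15.0 CPM in treated, 5.46 in KO and 12.7 in WT. The bipolar values came from 2201 treated, 1757 KO and 2640 WT cells.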

How the results depend on the processing

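No paired analysis was possible because each group has 1 library. Over the Müller class, the ratios of Anxa2, S100a6 and S100a10 stayed on the same side of 1 under the alternatives run. Within cluster 6, however, their treated over KO ratios were 1.12, 1.12 and 2.15. For KO over WT the 15 alternatives gave 14.3 to 24.0 for Anxa2, 3.93 to 5.20 for S100a6 and 3.06 to 3.98 for S100a10, and all called the 3 genes. For treated over KO the number of members called was 2, and it became 4 at a fold of 1.5 with a bound of 1.2, 1 (S100a6) without Müller clusters that hold 3 markers of another class, and 4 without cluster 6. Anxa2 was then at 0.786 (0.00676 to 239) in the second of these, which kept cluster 29 alone, with 3 treated and 2 KO reads. Its direction was not resolved there, nor was that of S100a10 (0.757, 0.234 to 2.58). Leaving those clusters out could not be run for KO over WT or treated over WT, since 2 WT cells remained. For treated over WT the number was 2, and it became 1 with doublets kept, 1 without the 5 highest cells, 1 after thinning to 5000 reads, where Anxa2 fell under the minimum at a ratio of 5.86, and 1 without cluster 6. Other settings added a call for treated over WT. S100a6 was also called at a fold of 1.5 with a bound of 1.2 (1.85, 1.77 to 1.93) and in cluster 4 alone (2.20, 2.01 to 2.42). Using cluster 4 alone also called Anxa1 higher for treated over KO (2.06, 1.79 to 2.37). Over rods, cones, bipolar and amacrine cells together the count was 8, and 7 to 10 under the alternatives. Using cluster 4 alone, leaving out clusters with neuronal markers and leaving out cluster 6 were chosen after seeing the data. Depth limits Anxa3 and Anxa11 in Müller glia and most annexins in neurons.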

Other observations

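Some listed relatives of the members were called outside Müller glia, few of those measured. In bipolar cells 1 of 3 other S100 genes was called higher for treated over KO (0.914% of all genes), and 1 of 13 partners was called lower for KO over WT (0.858%) and higher for treated over KO. In bipolar cells S100a4, an S100 gene linked to cell motility, was at 15.6 in treated, 5.34 in KO and 10.1 CPM in WT (treated over KO 2.91). Plat, the tissue plasminogen activator whose activity the Anxa2 and S100a10 complex raises, was at 4.90 in treated, 1.57 in KO and 4.96 in WT bipolar cells, with a ratio of 0.316 for KO over WT and 3.12 for treated over KO. In amacrine cells S100a16, 1 of 2 measured other S100 genes, was at 5.93 in treated, 5.00 in KO and 35.6 in WT (KO over WT 0.141, 1.03% of genes called lower), and the WT value came from 117 cells. The scaffold gene Ahnak, 1 of 14 measured partners there, was at 0 reads in treated, 6.83 in KO and 3.56 CPM in WT (treated over KO, 0.718% of genes called lower), at least 2.04-fold lower than in KO against the floor of 3 molecule equivalents. In endothelial cells S100a9, a neutrophil S100 gene and 1 of 5 measured, 0.795% of genes being called lower, was at 0 reads in treated and 14.1 CPM in WT, at least 2.97-fold lower against that floor. In rods S100a1, 1 of 2 measured, was at 13.9 in treated, 21.9 in KO and 33.1 in WT (treated over WT 0.421), where 0.686% of genes were called lower and 9.74% higher.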
